A study of Homo sapiens with 2 samples.

Results

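The genes described here are the histone genes of a count table from DU145, an epithelial line grown from a human prostate cancer. They are the 67 rows, of 17249 in all, whose symbols begin with HIST1H to HIST4H, H1F0, H1FX, H2AF or H3F3. Of these, 55 belong to the replication-dependent histone clusters and 11 are variant histone genes, which are called cluster genes and variant genes below. The remaining row, H1FX-AS1, is an antisense RNA beside H1FX that the symbol rule also caught. RNA was selected on oligo(dT) and sequenced in 2 libraries, 1 per group. One library is labelled as DU145 that received 200 pmol of small interfering RNA for the long noncoding RNA P53RRA, with new medium after 4 h and a further 48 h of growth, and it is called si-P53RRA. The other carries the name of DU145 alone, and its data column is named si-NC, for a negative-control RNA whose dose the sources used here do not give. It is called control. Throughout, "higher" and "lower" describe the si-P53RRA library relative to the control library. Because each condition has 1 library, differences are described without a test or a replicate, and the 95% intervals, given in parentheses, hold for counting error alone.

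Cells copy their DNA in S phase, and most of the histone protein that packs the new DNA comes from replication-dependent genes that lie in clusters. Their transcripts are intronless and, unlike other messenger RNAs, normally end in a short stem-loop rather than a poly(A) tail. The stem-loop is bound by SLBP, the stem-loop binding protein, and the end is made by a cut that needs the U7 small nuclear RNA particle. Selection on oligo(dT) leaves most of these transcripts behind, but many cluster genes also make polyadenylated forms, above all in cells that have stopped dividing. Variant histones such as H2A.Z, H3.3 and macroH2A are made outside S phase as well, from single genes whose transcripts carry a poly(A) tail, and replace the standard histones at chosen places in chromatin. In bulk RNA, fewer cells of a kind and less RNA per cell cannot be told apart.

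The libraries stood far apart over the whole table, and every value below has to be read beside that. The control library held 16030207 counts and the si-P53RRA library 11942362. A level of 1 count per 1000000 (CPM) was reached in 1 or both libraries by 13532 genes. Their median log2 change was −0.06, and 19.7% of them were higher by 2-fold or more and 23.2% lower by as much. LINC00472, the gene of P53RRA, had 105 counts in control and 6 in the other, 11.9-fold lower (5.29 to 33.2). The labelled cell type was checked against marker lists. CDH1, the cadherin of epithelial cells, had 2 counts in control and 7 in si-P53RRA, and EPCAM had 0 and 50. The 14 mesenchymal and fibroblast markers summed to 11749 CPM in control and 1597 CPM in the other. Of these, 12 were at least 2-fold lower and none higher, and THY1, DCN and FAP were at 0 in si-P53RRA. The 13 epithelial markers in the table summed to 417 CPM and 2042 CPM, with 7 of the 9 that reached 1 CPM at least 2-fold higher. DSP was the 1 epithelial marker that went the other way past this limit, from 408 counts in control to 0 in si-P53RRA. With 1 library per condition, the knockdown and a difference in the cells sampled cannot be told apart, and whether both libraries hold the same cell population is not settled by their labels. The part these differences play in the histone values was not tested.

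The stem-loop is the feature that sets the cluster genes apart, and it can be read in annotated transcripts. In GENCODE 29 a match to the 16-base histone stem-loop was found on the sense strand in 24 of the 55 cluster genes. Among variant genes it was found in H2AFX alone. Outside the histone symbols, 17 of 19594 protein-coding genes held a match in any coding transcript (0.0868%). The annotation of 25 of the 55 cluster genes holds only the coding part, so a missing match there says nothing. The lines that follow show the stem-loop, in capitals with 5 flanking bases on each side, for 6 cluster genes that the results turn on and for H2AFX.
HIST2H2BE: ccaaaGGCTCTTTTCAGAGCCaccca
HIST1H2AC: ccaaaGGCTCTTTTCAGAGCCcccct
HIST1H2BD: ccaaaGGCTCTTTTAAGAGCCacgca
HIST1H4H: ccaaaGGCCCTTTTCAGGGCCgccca
HIST3H2A: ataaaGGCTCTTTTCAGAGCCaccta
HIST1H3G: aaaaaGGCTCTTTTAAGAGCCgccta
H2AFX: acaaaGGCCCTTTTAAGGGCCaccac
The letters fall into few forms. The form of HIST2H2BE, HIST1H2AC and HIST3H2A was shared by 12 genes of the H2A, H2B and H3 types. The form of HIST1H4H was shared by 5 genes, all of them H4 genes, and that of HIST1H2BD by 4 genes. In HIST2H2BE, 1729 annotated bases follow the stem-loop, in HIST1H4H 1655, in HIST1H3G 1518, in HIST1H2AC 1128, in H2AFX 1044 and in HIST3H2A 390. Each value is from the annotated transcript with the most bases after the match. In that transcript, these genes therefore continue past the place where a replication-dependent transcript is cut. HIST1H2BD has a short transcript with 39 bases after the stem-loop and a longer spliced one in which no stem-loop was matched. In all, 18 cluster genes had more than 100 annotated bases after the stem-loop, and 15 had the poly(A) signal AATAAA within the last 50 bases of at least 1 transcript.

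Cluster genes took a small part of both libraries, and a smaller one in si-P53RRA. Summed over all 55, with no filter, they had 3654 counts in control, or 228 per 1000000 counts (221 to 235), and 1127 in si-P53RRA, or 94.4 per 1000000 (88.9 to 100.0). That is 2.42-fold lower on total counts. With library sizes scaled by the trimmed mean of M-values (TMM), which is used for all CPM and folds below, it is 2.20-fold lower (2.06 to 2.36). The 11 variant genes summed to 48948 and 25015 counts and were 1.33-fold lower (1.31 to 1.35). The lower cluster sum rests mainly on the 6 cluster genes with the most counts, at 3118 and 828, 2.56-fold lower (2.37 to 2.77). The other 49 cluster genes summed to 536 and 299 counts and were 1.22-fold lower (1.06 to 1.41), no further than the variant genes. The cluster genes made up 6.95% of all histone counts in control (6.73 to 7.17) and 4.31% in si-P53RRA (4.07 to 4.56), a share that does not depend on scaling.

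**Figure D1:**
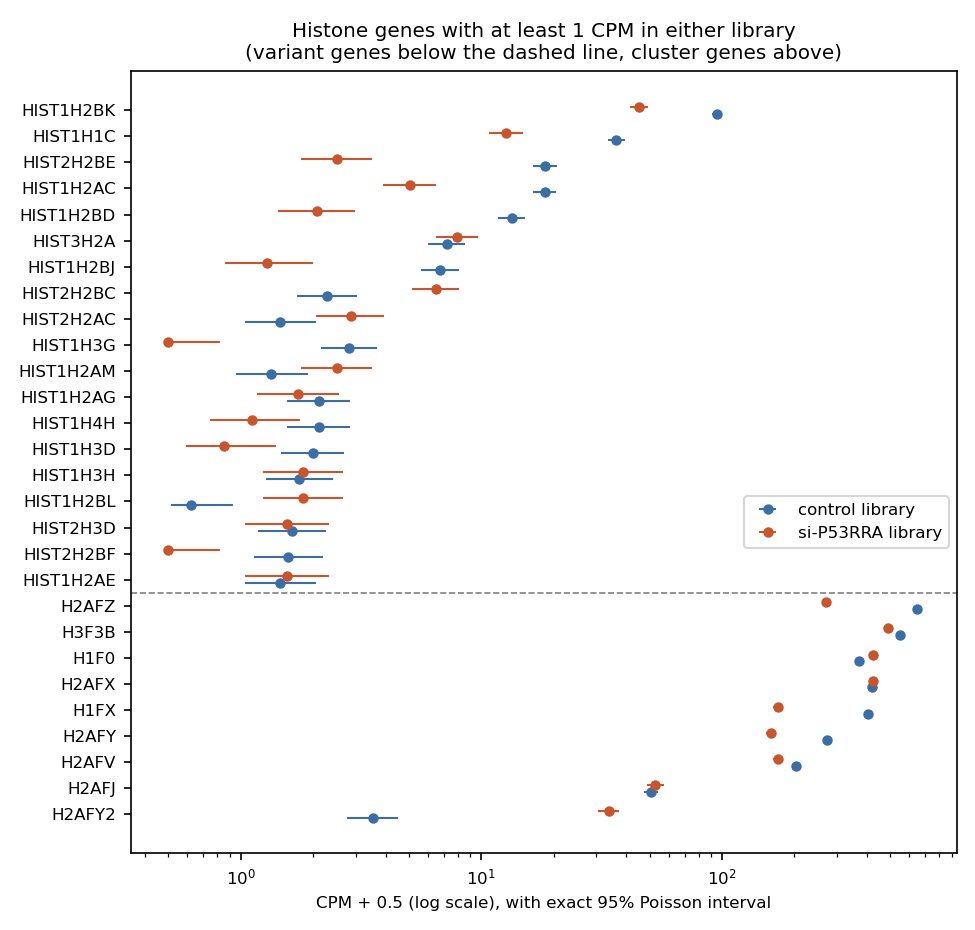
Level of each histone gene with at least 1 CPM in either library, as CPM + 0.5 on a log axis, with exact 95% Poisson intervals, for the control library (blue) and the si-P53RRA library (orange). HIST1H2BK, HIST1H1C, HIST2H2BE, HIST1H2AC, HIST1H2BD and HIST1H2BJ lie lower in si-P53RRA, whereas H2AFY2 lies 11.0-fold higher.

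Only 19 of the 55 cluster genes reached 1 CPM in either library. On the log2(CPM + 0.5) scale 9 of the 19 were lower by 2-fold or more and 2 were higher, with a median log2 change of −0.92, beside 23.2% lower and 19.7% higher over all genes tested. The median was −0.21 over all 55 with no filter and −0.40 with a pseudocount of 2.5 CPM. Genes of low level differed more often in general: of the 4067 tested genes with a mean under 10 CPM, 34.4% were lower and 24.8% higher. The 16 cluster genes at that level had 6 lower and 2 higher. The other 3 were all lower, where 18.3% of the 9465 genes at or over 10 CPM were. Genes that reach the limit of 1 CPM through only 1 library had to differ, so these counts describe the table and support nothing further. The 36 cluster genes under the limit together had 177 counts in control and 93 in the other.

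H2B genes made up most of the cluster counts. They held 63.7% of them in control and 60.1% in si-P53RRA. HIST1H2BK, which encodes an H2B protein, had the most counts of the cluster genes, 1588 in control and 511 in si-P53RRA (94.6 and 44.8 CPM), 2.11-fold lower (1.91 to 2.34). Its share of cluster counts was nearly level, at 43.5% (41.8 to 45.1) and 45.3% (42.4 to 48.3). Of its annotated 50-base words, 74.1% also occur in transcripts of other genes, 61.4% in the near-copy H2BFS alone, so its reads may be split or shared.

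HIST2H2BE, an H2B gene of the chromosome 1 cluster, had 301 counts in control and 23 in si-P53RRA, 8.90-fold lower (5.82 to 14.3). HIST1H2BD had 216 and 18 counts, 8.16-fold lower (5.04 to 14.0), and HIST1H2BJ 105 and 9, 7.93-fold lower (4.02 to 17.8). The intervals of these 3 H2B genes overlap each other and lie wholly above that of HIST1H2BK. The H2B genes thus did not share 1 ratio. HIST2H2BF was at 18 counts and 0, at least 4.08-fold lower against a floor of 3 counts in si-P53RRA. The 2 cluster genes that were higher are both H2B genes as well. HIST1H2BL had 2 counts in control and 15 in the other, 11.0-fold higher (2.57 to 99.4), and HIST2H2BC had 30 and 68, 3.33-fold higher (2.14 to 5.31). HIST2H2BC is annotated as a transcribed pseudogene and shares 39.8% of its 50-base words with other genes.

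HIST1H1C, which encodes a linker histone that binds DNA between nucleosomes, had 602 counts in control and 139 in si-P53RRA (35.9 and 12.2 CPM), 2.94-fold lower (2.44 to 3.57). The other 4 linker genes of the clusters stayed under 1 CPM, with 23 counts together in control and 2 in si-P53RRA. HIST1H1B and HIST1H1D, at 8 counts each in control, were at 0 in si-P53RRA.

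H2A genes of the clusters differed among themselves. HIST1H2AC had 299 and 52 counts (17.8 and 4.56 CPM), 3.91-fold lower (2.90 to 5.35). HIST3H2A, the H2A gene of the small HIST3 cluster, had 112 and 85 counts (6.67 and 7.45 CPM), a ratio of 1.12 (0.832 to 1.49) that leaves no difference detectable at this depth. HIST2H2AC had 16 and 27 counts, 2.48-fold higher as a ratio of CPM (1.29 to 4.93), and HIST1H2AM 14 and 23, 2.42-fold higher (1.19 to 5.08). With the pseudocount of 0.5 CPM their log2 changes were 0.98 and 0.92, just inside the limit for a 2-fold difference. HIST1H2AM shares 86.3% of its 50-base words with other genes, most of them with HIST1H3J. The 14 H2A genes went from 14.1% of cluster counts (12.95 to 15.2) to 21.0% (18.7 to 23.5).

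H3 and H4 genes were scarce. The 11 H3 genes summed to 142 and 53 counts, 1.82-fold lower (1.32 to 2.55), and the 9 H4 genes to 44 and 19, with a ratio whose interval includes no difference (0.900 to 2.86 as a fold lower). HIST1H3G had 39 counts in control and 0 in the other, at least 8.84-fold lower. HIST1H3D had 25 and 4, 4.25-fold lower (1.47 to 16.8), while all of its 50-base words occur in another annotated transcript. HIST1H3H, at 21 and 15 counts, HIST2H3D, at 19 and 12, HIST1H2AG, at 27 and 14, and HIST1H2AE, at 16 and 12, had intervals that include no difference. HIST1H4H had 27 and 7 counts, 2.62-fold lower as a ratio of CPM (1.11 to 7.13) and −0.92 in log2 change with the pseudocount.

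**Figure D2:**
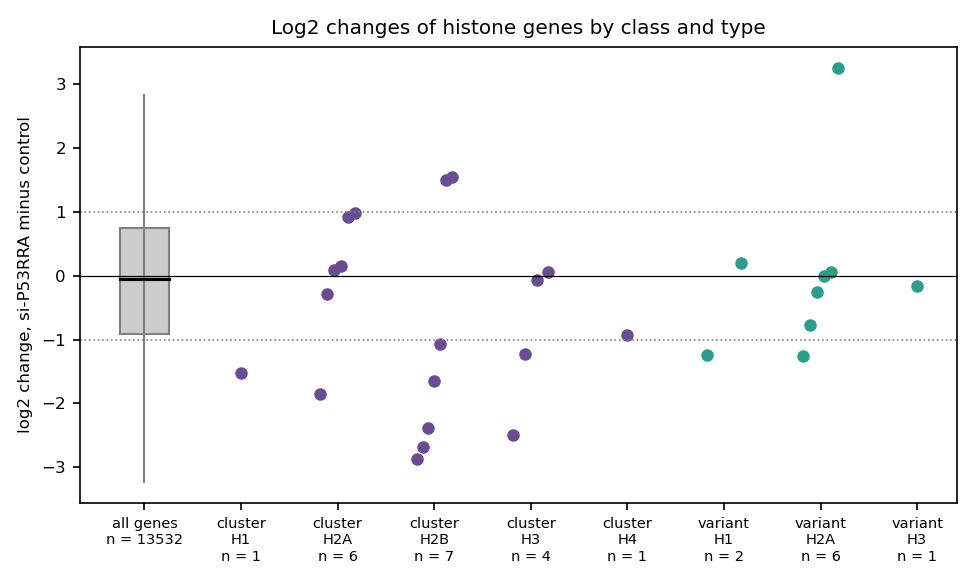
Log2 change of each histone gene with at least 1 CPM in either library, by class and histone type, each point a gene placed from low to high within its column. At the left, the box spans the middle of all 13532 genes tested from the lower to the upper quartile, with the median as a bar and whiskers from the 5th to the 95th percentile, and dotted lines mark 2-fold. Cluster H2B genes spread from −2.87 to 1.55, and variant genes lie between −1.26 and 0.20 apart from H2AFY2 at 3.26.

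Cluster genes were also grouped by their annotated end. The 15 genes with AATAAA near an end had 1107 and 227 counts, 3.32-fold lower (2.87 to 3.84), and the other 40 had 2547 and 900, 1.92-fold lower (1.78 to 2.08). The genes with AATAAA held 30.3% of cluster counts (28.8 to 31.8) in control and 20.1% (17.8 to 22.6) in the other. The second set includes the 25 genes whose annotation holds only the coding part, so their ends were not classified from sequence. HIST1H2BK, at 1588 and 511 counts, and HIST1H1C, at 602 and 139, are among them and hold most counts of that set. Its ratio is thus not that of genes known to lack the signal. Among genes that reached 1 CPM, the median log2 change was −1.75 for 10 genes with AATAAA and 0.09 for 9 of the others.

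Promoters of the cluster genes share short motifs that the symbol rule did not use. RefSeq sequence of the build GRCh38.p14, from 250 bases before to 50 bases after the start, was matched for 44 cluster genes and 9 variant genes. The octamer ATTTGCAT, the site of OCT1, was found on either strand in 38.6% of the cluster promoters, 11.1% of the variant promoters and 1.80% of the 27305 promoters in the table. By type it was in 10 of 13 H2A and 6 of 10 H2B promoters, 1 of 9 H3 promoters, and none of the 5 H1 or 7 H4 promoters. H3F3B was the 1 variant gene that held it. The letters CCAAT were in 86.4% of cluster, 66.7% of variant and 35.7% of all promoters, and TATAAA in 61.4%, 44.4% and 11.95%. The last 150 bases before the start are shown for 3 H2B genes that were lower and for H2AFZ, the variant gene with the most counts in control. Capitals mark these 3 motifs on either strand, which do not overlap in the windows shown.
HIST2H2BE, H2BC21 in RefSeq, chr1:149886683-149886832, minus strand: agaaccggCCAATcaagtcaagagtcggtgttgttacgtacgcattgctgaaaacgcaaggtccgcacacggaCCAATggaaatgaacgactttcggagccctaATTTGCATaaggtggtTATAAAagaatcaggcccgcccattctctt
HIST1H2BK, H2BC12 in RefSeq, chr6:27146859-27147008, minus strand: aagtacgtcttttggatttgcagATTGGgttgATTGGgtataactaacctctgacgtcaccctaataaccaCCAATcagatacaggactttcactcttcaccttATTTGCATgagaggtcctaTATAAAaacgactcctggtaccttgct
HIST1H2BD, H2BC5 in RefSeq, chr6:26157971-26158120, plus strand: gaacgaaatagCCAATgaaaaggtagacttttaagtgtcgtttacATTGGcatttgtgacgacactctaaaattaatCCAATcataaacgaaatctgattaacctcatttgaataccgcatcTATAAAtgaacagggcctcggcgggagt
H2AFZ, H2AZ1 in RefSeq, chr4:99950276-99950425, minus strand: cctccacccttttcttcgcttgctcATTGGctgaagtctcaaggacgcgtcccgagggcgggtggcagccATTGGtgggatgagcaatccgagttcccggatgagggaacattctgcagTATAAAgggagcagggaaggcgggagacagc
HIST2H2BE and HIST1H2BK both hold the octamer shortly before the TATA letters, and were 8.90-fold and 2.11-fold lower. HIST1H2BD, 8.16-fold lower, and H2AFZ have no octamer in the window. A match is a description of letters and not a bound site.

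Variant genes as a class took more counts than the cluster genes. Of the 11, 9 reached 1 CPM. Of these, 2 were at least 2-fold lower, 1 was at least 2-fold higher and 6 were within 2-fold, with a median log2 change of −0.16. Over all genes tested 23.2% were lower and 19.7% higher, and among genes at or over 10 CPM, where all 9 lie, 18.3% and 17.5%. The median of the cluster genes was 0.76 below that of the variant genes, a description with no test. Combining the bounds of single genes gave a range of −1.28 to 0.0070 around this difference of −0.76. Those bounds are on ratios without the pseudocount, and the range is not a counting interval of the median. It therefore cannot say whether counting error allows no difference. With no filter on level it was −0.05 over 66 genes, and with a pseudocount of 2.5 CPM it was −0.24. H3F3C, with 2 and 6 counts, and H2AFB2, with 2 and 0, stayed under the limit. H3F3A, which encodes the same H3.3 protein as H3F3B, is not among the rows that the symbol rule matched. The H3.3 values here therefore come from H3F3B alone.

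H2AFZ encodes H2A.Z, a variant placed beside promoters. It had 10875 counts in control and 3091 in si-P53RRA (648 and 271 CPM), 2.39-fold lower (2.30 to 2.49). H2AFV, which encodes a second and nearly identical H2A.Z protein, had 3394 and 1937 counts (202 and 170 CPM), 1.19-fold lower (1.13 to 1.26). H2AFV therefore held 23.8% of the H2A.Z counts in control (23.1 to 24.5) and 38.5% in si-P53RRA (37.2 to 39.9).

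The macroH2A genes differed in opposite directions. MacroH2A carries a large extra domain and marks silent chromatin such as the inactive X chromosome. H2AFY, the gene of macroH2A1, had 4573 and 1821 counts (273 and 160 CPM), 1.71-fold lower (1.62 to 1.80). Of its annotated 50-base words, 28.3% also occur in transcripts of other genes, 26.1% in C5orf66, so its reads may be split or shared. H2AFY2, the gene of macroH2A2, had 51 and 381 counts (3.04 and 33.4 CPM), 11.0-fold higher (8.19 to 15.0). H2AFY2 was thus 1.10% of macroH2A counts in control (0.822 to 1.45) and 17.3% in si-P53RRA (15.7 to 18.9). Which of the pair stood higher per length depends on the transcript chosen. Per kb of the longest annotated transcript, H2AFY had 24.8 CPM in control and 14.5 in si-P53RRA, against 1.54 and 16.9 for H2AFY2, so the order turned. Per kb of the longest coding transcript, H2AFY had 97.7 and 57.2 and stayed above H2AFY2, whose values are the same by both lengths.

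The linker histone variants differed from each other as well. H1F0, a linker histone that accumulates in differentiated cells, had 6208 and 4852 counts (370 and 425 CPM), 1.15-fold higher (1.11 to 1.19). H1FX had 6769 and 1942 (403 and 170 CPM), 2.37-fold lower (2.25 to 2.49). H1F0 was 47.8% of their joint counts in control (47.0 to 48.7) and 71.4% in the other (70.3 to 72.5). The antisense RNA H1FX-AS1 had 39 and 7 counts, 3.79-fold lower (1.68 to 10.0). Of the 50-base words of H1FX, 17.2% also occur in H1FX-AS1, on either strand, and no source used here says whether the libraries kept the strand, so the reads of this pair cannot be told apart where they overlap.

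H2AFX, H2AFJ and H3F3B were near level. H2AFX, whose protein is phosphorylated at DNA breaks, had 7059 and 4812 counts (421 and 422 CPM), with a ratio of 1.00 (0.966 to 1.04). H2AFX shares a stem-loop match with 24 cluster genes, of which 12 reached 1 CPM. Of those 12, 5 were lower and 2 higher by 2-fold or more and 5 were within 2-fold. A near-level ratio therefore does not set H2AFX apart from them. H2AFJ, which encodes an H2A variant known from senescent cells, had 842 and 597 counts, with a ratio of 1.04 (0.937 to 1.16). On total counts the log2 changes of H2AFX and H2AFJ turn to −0.13 and −0.07. H3F3B, which encodes H3.3, had 9173 and 5576 counts (547 and 489 CPM), 1.12-fold lower (1.08 to 1.16).

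**Figure D3:**
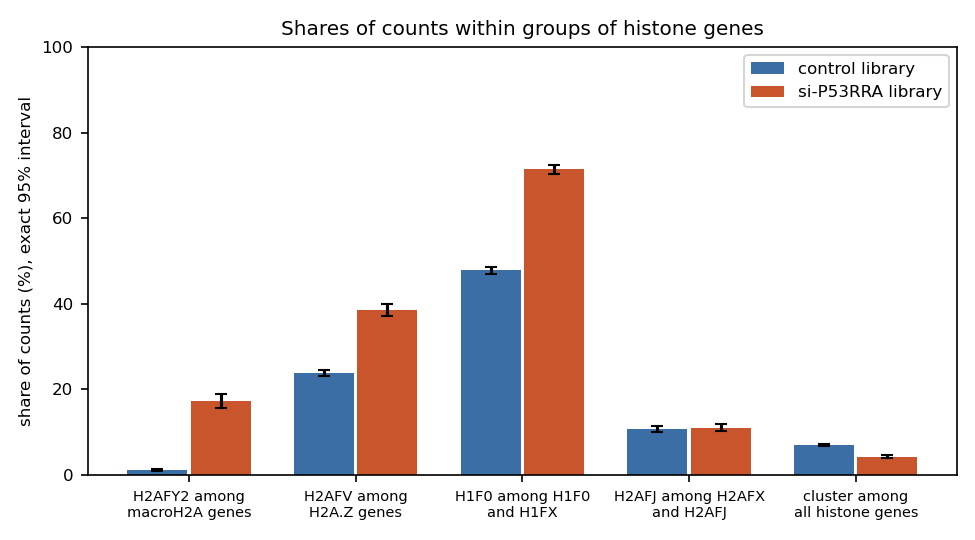
Share of counts, in percent, that 1 gene or class held within a group of histone genes, in control (blue) and the si-P53RRA library (orange), with exact 95% binomial intervals. H2AFY2 goes from 1.10% to 17.3% of macroH2A counts and H1F0 from 47.8% to 71.4% of H1F0 and H1FX counts, while H2AFJ keeps 10.7% and 11.0% of H2AFX and H2AFJ counts.

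Counts grow with the length of a transcript, so the order of levels between genes is given per length, as CPM per kb of the longest annotated transcript. In the control library H2AFZ had 345 CPM per kb, H1FX 268, H2AFX 261, HIST1H2BK 248, H3F3B 196 and H1F0 158. In the si-P53RRA library H2AFX led with 261, followed by H1F0 with 181, H3F3B with 175, H2AFZ with 144, HIST1H2BK with 118 and H1FX with 113. The order depends on the transcript chosen, since H2AFZ has 662 and 277 CPM per kb of its longest coding transcript, and the 381 annotated bases of HIST1H2BK are only its coding part. HIST1H1C, likewise annotated by its coding part, had 55.9 and 18.98, HIST3H2A 7.46 and 8.32, and HIST2H2BE 8.18 and 0.919. HIST1H1C, HIST3H2A and HIST2H2BE were thus below H2AFZ, H1FX, H2AFX, H3F3B and H1F0 per length in both libraries, whereas HIST1H2BK was not.

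Genes that make, cut and place histones did not share a direction. In the list of 21 genes for the 3′ ends of histone transcripts and their decay, the median log2 change was 0.09, with 4 lower and 3 higher by 2-fold or more. Over all genes tested, 23.2% were lower and 19.7% higher, to be read beside this list and each list below. SLBP had 1926 and 1234 counts, a ratio of 1.06 as a fold lower (0.987 to 1.14). CASP8AP2, known as FLASH, which recruits the cutting complex, had 417 and 48, 5.91-fold lower (4.37 to 8.14). LSM11, a protein of the U7 particle, had 235 and 397, 2.48-fold higher (2.11 to 2.93). ERI1, a nuclease that trims the stem-loop end, was 2.35-fold lower (2.04 to 2.72), and ZCCHC11, a terminal uridylyltransferase, 3.28-fold lower (2.67 to 4.06).

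For histone gene transcription, 4 of 12 listed genes were lower and none higher; their median was −0.05. NPAT, the coactivator of histone genes that cyclin E and CDK2 act on, had 547 and 75 counts, 4.96-fold lower (3.89 to 6.40). CCNE2, a cyclin E gene, had 296 and 18, 11.2-fold lower (6.95 to 19.1). CCNE1, the other cyclin E gene, went the other way with 95 and 98 counts (5.66 and 8.59 CPM), 1.52-fold higher (1.13 to 2.03), so that the cyclin E genes did not share a direction. The acetyltransferase gene KAT2A had 1540 counts and 0, at least 349-fold lower, and CREBBP was 2.38-fold lower (2.20 to 2.57). NPAT and CASP8AP2 both act at the histone locus body, where cluster genes are transcribed and cut.

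Among 32 chaperone and deposition genes, whose median was −0.14, 2 were higher and 6 lower. CHAF1A and ASF1B, which place new histones behind the replication fork, were 1.33-fold (1.23 to 1.44) and 1.31-fold (1.23 to 1.40) higher. HIRA, which places H3.3 at active genes, was level at 1.02-fold lower (0.929 to 1.11). DAXX and ATRX, which place H3.3 at repeats and telomeres, were 1.21-fold (1.12 to 1.31) and 2.17-fold (1.90 to 2.497) lower. IPO4, an importin that carries H3 and H4 into the nucleus, was 3.47-fold higher (3.26 to 3.69), and TONSL, a reader of new histones, 2.36-fold higher (2.14 to 2.59). HAT1, which acetylates new H4, was 2.36-fold lower (2.09 to 2.68), and SUPT6H, a chaperone of transcription, 2.62-fold lower (2.43 to 2.83). CENPA, the histone H3 variant of centromeres, falls outside the symbol rule and had 656 and 345 counts, 1.29-fold lower (1.13 to 1.48).

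Cell cycle lists stood between the cluster and the variant genes or below both. DNA replication genes had a median of −0.28, and 7 of 31 were lower and none higher. Over all genes tested 23.2% were lower and 19.7% higher, so the number of replication genes that were lower is near that share. RFC1, of the clamp loader, was 2.58-fold lower (2.32 to 2.89), MCM2, of the replicative helicase, 2.24-fold lower (2.14 to 2.35), and the ligase gene LIG1 2.20-fold lower (1.97 to 2.47). Mitosis genes had a median of −1.11, and 13 of 24 were lower and none higher. CENPE was 10.8-fold lower (8.41 to 14.1). Of 16 genes for poly(A) tails and their binding, with a median of −0.05, none was lower and 2 were higher. These were PABPN1, the nuclear poly(A)-binding protein, 2.95-fold higher (2.59 to 3.38), and CPSF1, 2.43-fold higher (2.28 to 2.59). The part of cell cycle phase or of poly(A) selection in the cluster gene values was not tested.

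**Figure D4:**
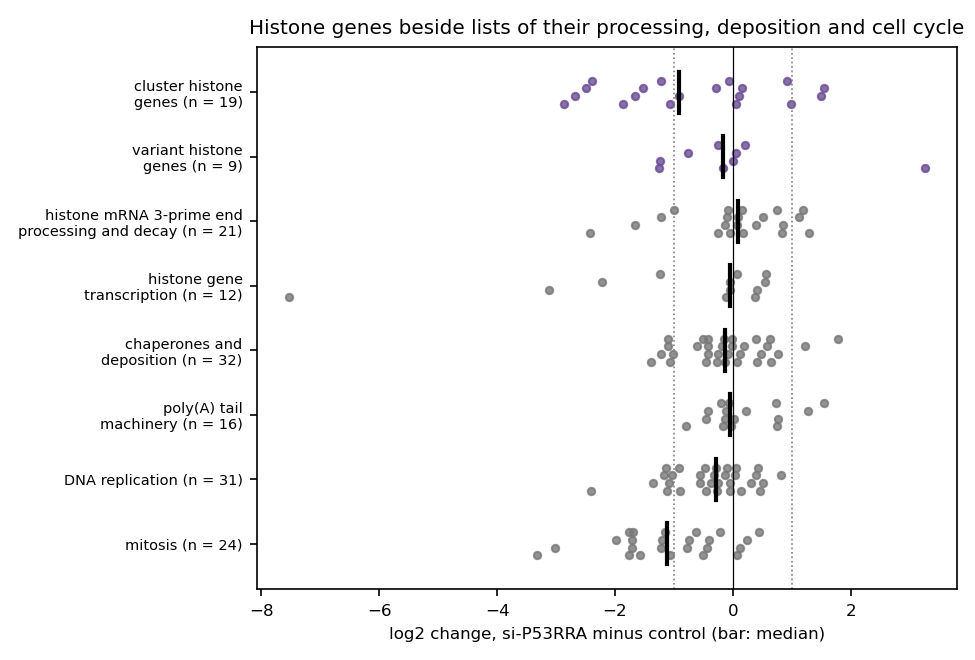
Log2 change of each tested gene (points) and the median (bar) for cluster and variant histone genes, in purple, and for 6 lists of related genes, in grey, with dotted lines at 2-fold. The median of the cluster genes, −0.92, lies between those of DNA replication, −0.28, and mitosis, −1.11, and KAT2A is the point far to the left.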

How the data were processed

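The measurement was poly(A)-selected RNA sequencing, with cDNA primed by random hexamers, per the labels' protocols. The deposited table holds whole-number counts per gene symbol in 2 columns, as judged from the values, with no normalization stated. Reads were mapped to hg19, per the submitters' processing notes; the sources used here do not give the aligner, counter, annotation or filters. The si-P53RRA column matched its sample title, and the si-NC column was assigned to the sample titled by its cell line alone, as control.

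Library sizes were scaled with TMM in edgeR 4.0.16 under R 4.3.3 (factors 1.05 for control and 0.955 for si-P53RRA). Log2 change is the difference in log2(CPM + 0.5), given where either library reached 1 CPM, and genes at least 2-fold apart were tallied with no test. Folds are ratios of CPM without the pseudocount, with exact conditional binomial 95% intervals. Shares have exact Clopper-Pearson intervals and levels exact Poisson intervals. A fold against 0 counts uses a floor of 3 counts per library, and none is given where both libraries are at or under 3. These intervals cover counting error only, since reads were not tied to single molecules. Where nothing says that libraries are separate cultures, they are only 1 library each.

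Stem-loops, lengths, AATAAA and shared 50-base words came from GENCODE 29 transcripts, which are on GRCh38 and not on hg19. Promoters came from RefSeq. Members and gene lists were chosen with earlier results of these data known. Any member that reached 1 CPM could be named, with LINC00472, 9 chosen genes and, per list, up to 4 members past 2-fold, taken by size of change; further genes were named after their values were seen, and 1 gene that this rule names is not reported here. Alternatives were other scalings (DESeq2 1.42.0 median ratios among them), filters, pseudocounts and fold sizes, a cubic surface in transcript GC content and log length, and leaving out members with shared sequence. The procedure was tested on simulated data.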

Additional observations from a re-analysis of the deposited data

How the results depend on the processing

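No paired analysis was possible because each group has 1 library, and for the same reason no library could be left out. The 9 cluster genes at least 2-fold lower stayed within 1.5 times of that count under every alternative run except the 4-fold limit, where there were 4 (over all genes, 8.34% were 4-fold higher and 10.3% lower). The 2 that were higher became 4 with a pseudocount of 0.1 CPM or at 1.5-fold, 1 with at least 5 CPM or after the GC and length correction, and 0 with a pseudocount of 2.5 CPM or at 4-fold. The median of the cluster genes, −0.92, became −1.69 with at least 5 CPM, which leaves 8 genes, and −1.62 after the GC and length correction, which had values for 94.7% of the genes tested; it shrank to −0.21 with no filter, which takes in all 55 genes, and to −0.40 with a pseudocount of 2.5 CPM. The cluster minus variant difference of −0.76 became −1.53, −1.37, −0.05 and −0.24 under the same 4 settings in turn; the cause of the shift under the correction was not tested. The variant median of −0.16 became −0.29 on total counts and −0.26 after the correction, and at 4-fold the 2 lower variant genes became 0. The summed cluster counts were 2.42-fold lower on total counts and 2.20-fold with TMM; those of the variant genes were 1.46-fold, 1.33-fold with TMM and 1.52-fold without H3F3B. No direction of a class median or sum was reversed. Among single genes, calls of 2-fold changed for HIST1H2BL, HIST1H3D, HIST1H3G, HIST2H2BC, HIST2H2BF and H1FX-AS1 with a pseudocount of 2.5 CPM, for HIST1H2AM, HIST2H2AC and HIST1H4H with 0.1 CPM, and for HIST1H4H on total counts. Total counts moved the median of all genes tested from −0.06 to −0.18, and turned the sign of the near-level H2AFX, H2AFJ and HIST1H3H, which stayed above that median. Depth limits most cluster genes: 36 of 55 were under 1 CPM in both libraries.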
